A study of Mus musculus with 7 samples.

Results

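Ion channel and neurotransmitter receptor genes were examined in alveolar macrophages, which patrol the airspaces of the lung, from mice given Suz12 cKO (conditional knockout) or wild type marrow. The genes were chosen by symbol: voltage-gated, inward rectifier, tandem-pore and calcium-activated potassium channels with their auxiliary subunits (Kcn), voltage-gated calcium (Cacna, Cacnb, Cacng) and sodium (Scn) channels, hyperpolarization-activated channels (Hcn), ionotropic glutamate, GABA-A, glycine and nicotinic receptors, and Slc32a1. Of the 27179 genes in the deposited count table, 201 had such a symbol, and the 64 with a count above 0 in at least 3 of the 7 libraries are the members described here. Slc32a1 is not a channel but the transporter that loads GABA and glycine into synaptic vesicles, and Kcnq1ot1, an antisense RNA, was left out.

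Macrophages were sorted from the lungs of bone marrow chimeras on the C57BL/6 background. The Suz12 cKO group (3 libraries) came from lethally irradiated C57BL/6-Ly5.1 recipients of 90% Suz12 cKO Ly5.2 marrow, and the wild type group (4 libraries) from recipients given 90% wild type Ly5.2 marrow. In both groups the other 10% of the marrow was wild type with the Ly5.1 allele. The age of the mice, the Cre driver, the deleted exons and whether competitor or host cells were gated out of the sort are details not given in the sources used here.

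Ion channels set the membrane potential and pass potassium, calcium or sodium across the cell's membranes. In macrophages the potassium channels are the best studied: inward rectifiers and tandem-pore channels hold the resting potential, and potassium efflux is a trigger of the NLRP3 inflammasome. Most ligand-gated receptors of the list are known from synapses. Suz12 is a core subunit of the polycomb repressive complex PRC2, which methylates histone H3 and keeps many genes of other lineages silent, neuronal channel and receptor genes among them.

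The libraries held 63923829, 65257142 and 70473901 counts in Suz12 cKO and 48104653 to 79281431 counts in wild type. Levels are given as CPM (counts per 1000000 after TMM scaling of the libraries) and, between genes, as RPKM (CPM per kilobase of the deposited gene length). Suz12 itself was at 22.1, 23.6 and 15.1 CPM in Suz12 cKO, against 56.5, 56.3, 73.9 and 68.9 CPM in wild type (log2 fold change -1.65, SE 0.18, edgeR adjusted p = 0.00134), so transcript counted over the whole gene remained in each Suz12 cKO library. All 14 listed alveolar macrophage markers had counts in every library, with summed levels of 36751 to 41947 CPM in Suz12 cKO and 31031 to 36807 CPM in wild type, and 6 of them were called higher and 1 lower in Suz12 cKO. Haemoglobin transcripts stood above 20 CPM in Suz12 cKO replicates 1 and 2 (192 and 155 CPM) and wild type replicate 2 (56.6 CPM), and between 2.29 and 5.17 CPM in the other 4 libraries. The alveolar and airway epithelium list was also highest in these 3 libraries. It summed to 40.3, 76.5 and 91.7 CPM there in the same order, against 16.1 to 27.5 CPM in the other 4. The endothelium list did not follow this order (77.7, 82.8 and 102 CPM, against 98.2 to 112 CPM). A split by haemoglobin is therefore also a split by epithelial transcripts. Fewer cells of a type and less RNA per cell cannot be told apart in these bulk libraries.

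Most genes of the family were not detected at this depth. Of the 201 genes, 102 had no count in any library, which allows a level of up to 0.0378 to 0.0624 CPM per library (3 counts, counting error only), and 35 had counts in 1 or 2 libraries. Among the 64 members, 32 had a count in all 7 libraries. A library held counts for 51 to 60 members in Suz12 cKO and for 42 to 55 members in wild type. The potassium channels supplied 32 of the 64 members. Of the tandem-pore channels 5 of 14 were counted in all 7 libraries, against 1 of 24 in the group of GABA-A receptors, glycine receptors and Slc32a1. Kcnma1, the large-conductance calcium-activated potassium channel, and Kcnk9, an acid-sensitive tandem-pore channel, had no count.

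**Figure D1:**
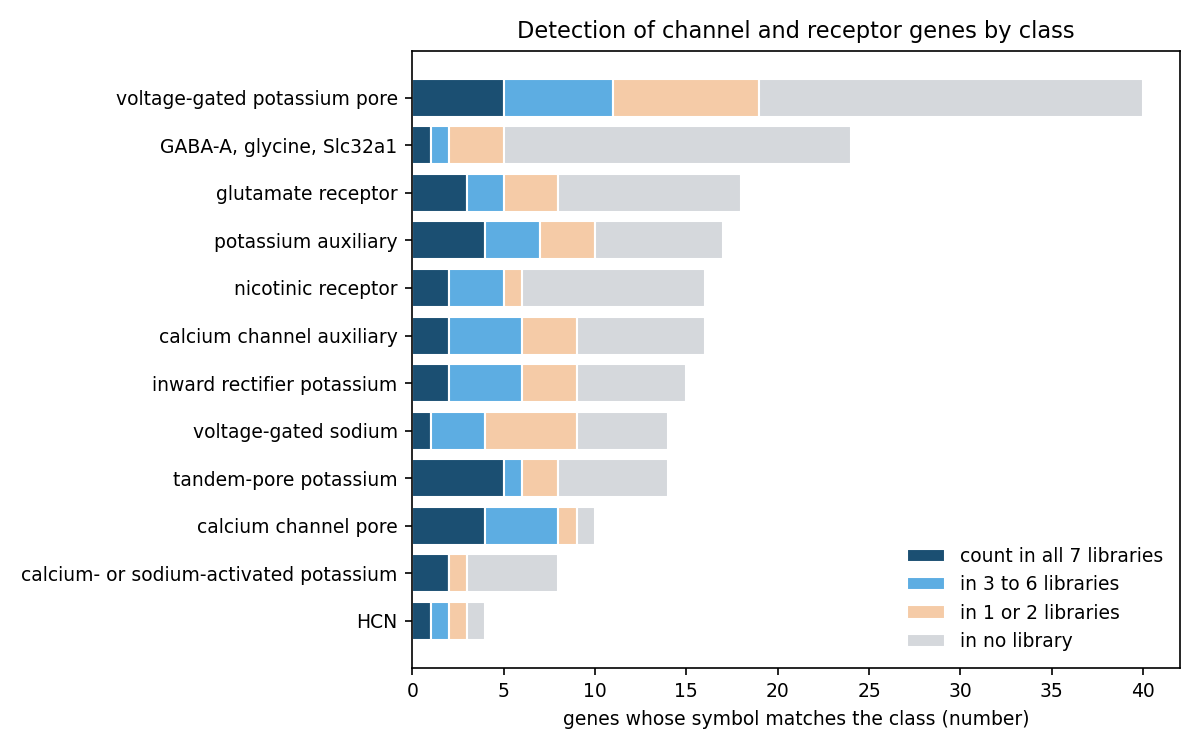
Number of genes in each class by the number of libraries with a count (bars, x axis, stacked from all 7 libraries on the left to none on the right). Voltage-gated potassium pore genes formed the largest class with 40 genes, of which 11 were members, and the GABA-A, glycine and Slc32a1 group had 2 members of 24 genes.

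The level of the family rested on a few potassium channel genes. Averaged over the 7 libraries, Kcna3 stood at 94.6 RPKM and made up 40.2% of the summed RPKM of the members. Kcna3 encodes a voltage-gated potassium channel pore known from lymphocytes and macrophages. Next in order were Kcnn3, a small-conductance calcium-activated potassium channel, at 38.4 RPKM and Kcnab2, a cytoplasmic beta subunit of voltage-gated potassium channels, at 28.9 RPKM. Kcnk6, a tandem-pore channel through which macrophages release potassium, stood at 15.7 RPKM, and Kcne3, a small membrane subunit that partners voltage-gated potassium channel pores, at 14.7 RPKM. These 5 genes held 81.7% of the members' summed RPKM. Another 7 members lay between 1 and 10 RPKM, 30 between 0.1 and 1 RPKM and 22 under 0.1 RPKM, and the median member was at 0.212 RPKM.

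The 3 most abundant members did not pass the test between the genotypes. Kcna3 was at 211, 191 and 147 CPM in Suz12 cKO, against 163, 225, 196 and 170 CPM in wild type (log2 fold change -0.05, SE 0.15, edgeR adjusted p = 0.905). Kcnn3 was at 290, 318 and 294 CPM in Suz12 cKO, against 262, 272, 339 and 271 CPM in wild type (log2 fold change 0.07, SE 0.11, edgeR adjusted p = 0.764). The ranges of the genotypes overlapped for both genes, and for Kcnn3 the highest library was a wild type one. Kcnab2 likewise overlapped, at 108, 94.4 and 115 CPM in Suz12 cKO and 103, 124, 109 and 111 CPM in wild type (log2 fold change -0.08, SE 0.10, edgeR adjusted p = 0.721).

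**Figure D2:**
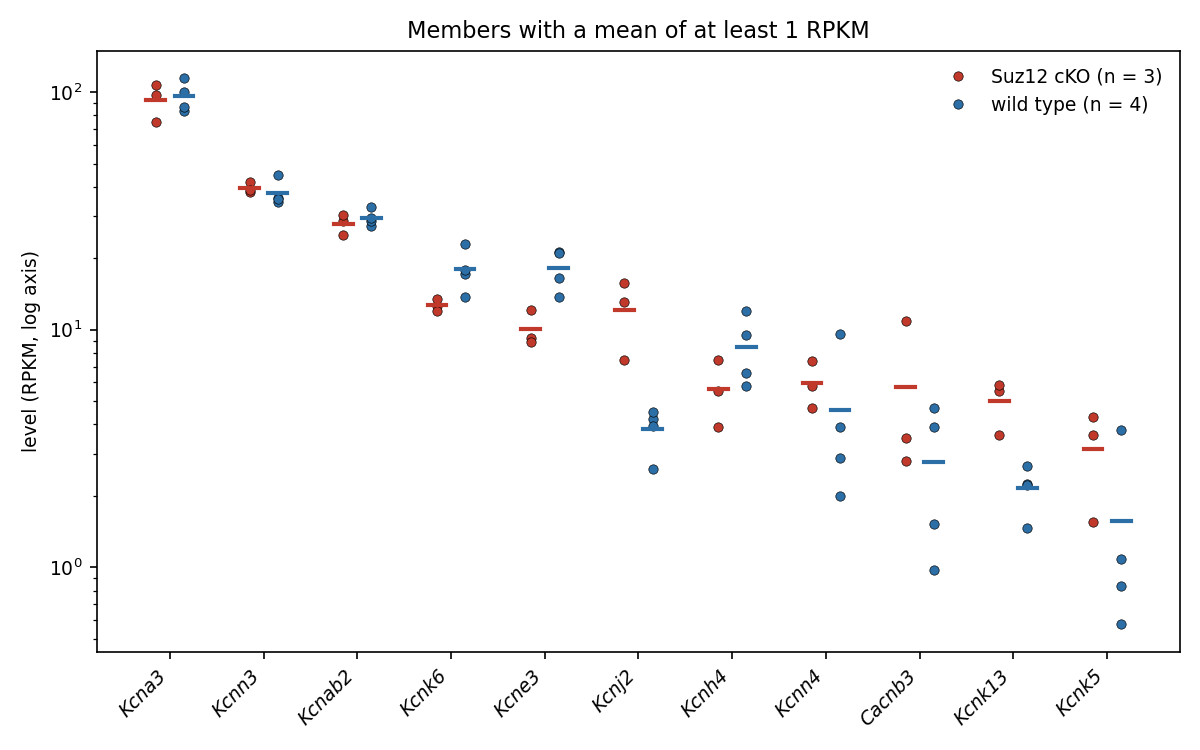
Level in RPKM (log axis) of 11 members with a mean of at least 1 RPKM, with a point for each library, Suz12 cKO left of wild type, and a line at each group's mean. Kcna3 stood highest at a mean of 94.6 RPKM, and Kcnj2 and Kcnk13 are the genes among them whose Suz12 cKO points all lie above the wild type points.

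Of the 64 members, 53 passed the filter on low counts and were tested, and 11 were not. A member was called at an edgeR quasi-likelihood p under 0.05 after Benjamini-Hochberg adjustment over all 14436 genes tested. Called higher in Suz12 cKO were 4 members, 7.55% of those tested, against a background of 6.28% of all genes. They were Kcnj2, Slc32a1, Kcnk13 and Gria3. Called lower was 1 member, Kcne3, or 1.89% of those tested, against 4.02% of all genes. The shares called in either direction were 9.43% of the members and 10.3% of all genes, so the members were called about as often as genes in general. The other 48 tested members were not called.

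The fitted fold changes of the tested members were not centred on 0. A log2 fold change above 0 was fitted for 37 of the 53 tested members (69.8%, against 50.4% of all genes), with a median of 0.72 against 0.0037 for all genes. Genes at a low level lay above 0 in general. Among genes with a mean under 1 CPM the median was 0.75 for 25 members and 0.56 for all 2297 genes. None of these members was called, and few of these genes were (2.74% higher and 0.0871% lower), so no call among 25 is near the background. Among genes with a mean of at least 1 CPM, 4 of 28 members were called higher and 1 lower (14.3% and 3.57%), against 6.94% and 4.76% of 12139 genes, and the medians were 0.51 and -0.02. Ranges of the genotypes did not overlap for 11 members higher in Suz12 cKO (20.8%, against 14.1% of all genes) and for 2 members lower in Suz12 cKO (3.77%, against 11.5%). A member at or near 0 in wild type can pass the filter only through the Suz12 cKO libraries, so these counts and medians are a description and carry no test.

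**Figure D3:**
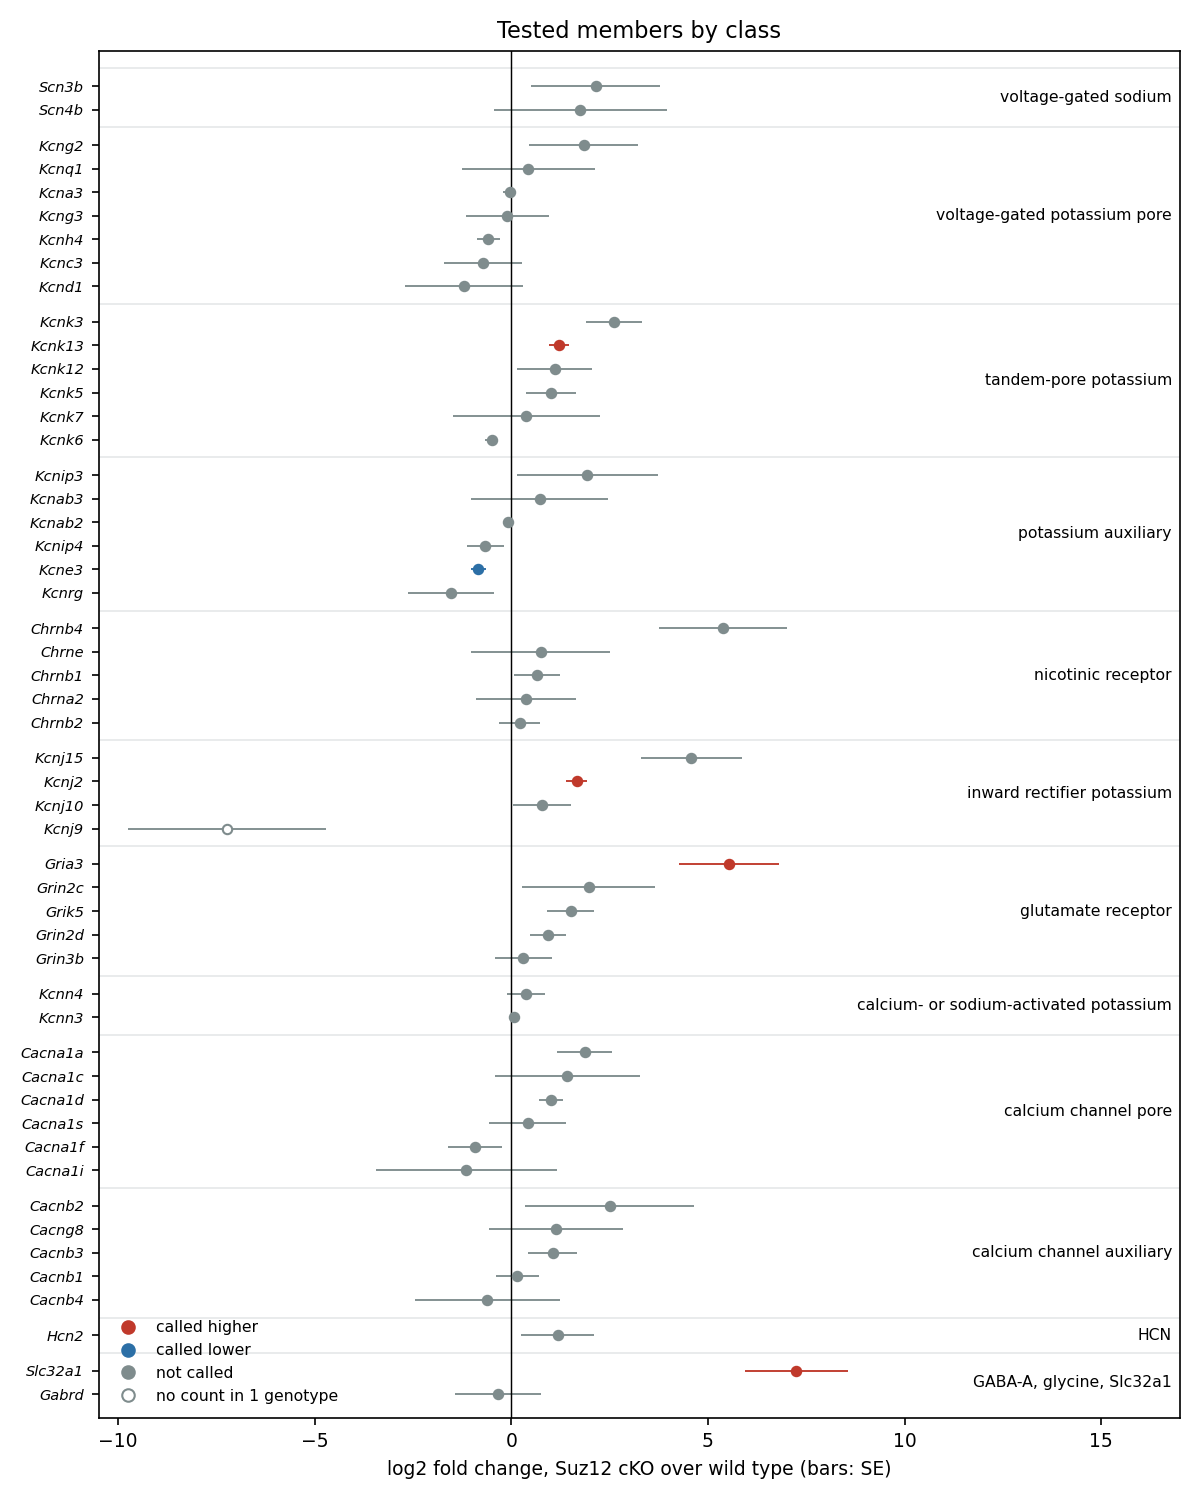
Log2 fold change of Suz12 cKO over wild type for 51 of the 53 tested members (points, bars are SE), grouped by class, with called members in colour. Slc32a1 at 7.25, Gria3 at 5.53, Kcnj2 at 1.66 and Kcnk13 at 1.22 were called higher and Kcne3 at -0.84 lower, while Kcnj9, open because it had no count in Suz12 cKO, was not called.

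Start regions were available from RefSeq (GRCm38.p6) for 4 of the 5 called members. They are shown because PRC2 is known from CpG-rich promoters, a property that can be read from the letters. Each line gives 250 bases before and 50 bases after the start that the RefSeq table of windows uses, on the plus strand, in lower case with every CG in capitals. For Kcnj2 that is the start of the annotated gene, and for Slc32a1, Kcnk13 and Kcne3 it lies downstream of it, inside the gene. The windows lie at chr11:111065914-111066213 (Kcnj2), chr2:158610508-158610807 (Slc32a1), chr12:99964249-99964548 (Kcnk13) and chr7:100176420-100176719 (Kcne3, the first of its 2 windows in the table).
Kcnj2: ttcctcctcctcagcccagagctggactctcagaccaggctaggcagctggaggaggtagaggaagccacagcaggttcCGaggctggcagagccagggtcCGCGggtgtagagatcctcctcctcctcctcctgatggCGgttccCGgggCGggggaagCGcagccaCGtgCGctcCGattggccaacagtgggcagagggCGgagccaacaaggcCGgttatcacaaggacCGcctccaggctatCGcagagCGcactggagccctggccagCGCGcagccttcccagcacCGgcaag
Slc32a1: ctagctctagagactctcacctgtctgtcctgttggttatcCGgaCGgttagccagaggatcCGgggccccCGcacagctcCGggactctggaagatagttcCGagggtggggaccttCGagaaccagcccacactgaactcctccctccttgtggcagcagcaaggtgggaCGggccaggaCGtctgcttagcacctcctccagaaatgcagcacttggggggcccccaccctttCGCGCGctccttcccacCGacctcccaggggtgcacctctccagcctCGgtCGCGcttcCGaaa
Kcnk13: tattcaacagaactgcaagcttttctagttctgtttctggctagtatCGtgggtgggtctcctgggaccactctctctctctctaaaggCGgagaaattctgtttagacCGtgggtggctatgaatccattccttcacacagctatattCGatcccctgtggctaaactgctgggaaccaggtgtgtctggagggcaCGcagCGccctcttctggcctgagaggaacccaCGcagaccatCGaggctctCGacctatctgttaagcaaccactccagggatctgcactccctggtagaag
Kcne3: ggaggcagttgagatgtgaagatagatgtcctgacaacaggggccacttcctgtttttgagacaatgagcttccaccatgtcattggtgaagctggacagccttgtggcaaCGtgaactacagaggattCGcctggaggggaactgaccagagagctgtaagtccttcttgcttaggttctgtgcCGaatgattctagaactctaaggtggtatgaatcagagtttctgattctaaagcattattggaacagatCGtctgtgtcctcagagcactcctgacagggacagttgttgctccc
The motif searched was CG, which reads the same on both strands. It occurred 18 times in the Kcnj2 window and 17 times in the Slc32a1 window, and 29.7% and 31.4% of the 32851 RefSeq windows of this length held at least as many. The Kcnk13 window held 9 and the Kcne3 window 4, which 45.8% and 68.6% of windows reached. Observed over expected CpG was 0.540 for Kcnj2, 0.574 for Slc32a1, 0.434 for Kcnk13 and 0.233 for Kcne3, all under the 0.6 used here for a CpG-rich window, so none of the 4 windows counted as one. Of genes with a window, 45.1% of all genes and 62.7% of all genes called higher had a CpG-rich one. The annotated starts of Slc32a1 and Kcnk13 lie outside the windows shown, so their CpG content was not read. A window was in the table for 46 of the 64 members (71.9%), against 67.9% of all genes and 74.6% of tested genes not called. Of those with a window, 39.1% of members had a CpG-rich one, against 45.1% of all genes and 65.9% of tested genes not called. The members were not matched to these genes for level, and the difference was not tested.

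Among the inward rectifiers, 1 of 4 tested members was called. Kcnj2, the strong inward rectifier that holds the resting potential near the potassium equilibrium, was at 85.6, 71.3 and 40.5 CPM in Suz12 cKO, against 23.0, 14.1, 24.5 and 21.5 CPM in wild type. Every Suz12 cKO library lay above every wild type library. The means were 65.8 ± 23.0 CPM in Suz12 cKO (SD, n = 3) and 20.8 ± 4.60 CPM in wild type (SD, n = 4), a log2 fold change of 1.66 (SE 0.26, edgeR adjusted p = 0.00567). Kcnj2 lies on chromosome 11 from 111066164 to 111076825 in GRCm38. The Suz12 cKO libraries high in haemoglobin were its highest, while the wild type library high in haemoglobin was its lowest at 14.1 CPM. The log2 fold change was 0.80 within the libraries low in haemoglobin and 2.47 within those high in it. The difference between these values was not tested, and the part of other cells' RNA in it was not tested.

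Kcnj15, an inward rectifier known from epithelia, was at 4.40, 11.7 and 6.45 CPM in Suz12 cKO, against 0.921, 0.295, 0 and 0 CPM in wild type. The ranges did not overlap, but it was not called (log2 fold change 4.57, SE 1.28, edgeR adjusted p = 0.0559). Its exons overlap an antisense gene, Gm49643, and the strand setting of the counts is not given. Kcnj9, a subunit of G protein-activated channels, had no count in Suz12 cKO and 33, 0, 13 and 26 counts in wild type. It was not called over all libraries (edgeR adjusted p = 0.134) but was called lower without wild type replicate 2 (edgeR adjusted p = 0.0412). Its wild type level was 19.4-fold a floor of 3 counts over the Suz12 cKO group, a floor that covers counting error only. Kcnj10, the glial inward rectifier 11.9 kb from Kcnj9, overlapped between the genotypes at 0.994, 1.60 and 0.602 CPM in Suz12 cKO and 0.461 to 0.788 CPM in wild type. Summed over the 6 members of the class, levels were 16.7, 15.8 and 8.83 RPKM in Suz12 cKO and 4.83, 2.88, 4.88 and 4.22 RPKM in wild type, with Kcnj2 supplying most of each sum.

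Tandem-pore channels carry background potassium currents, and 1 of 6 tested members was called. Kcnk13, the halothane-inhibited channel known as the background potassium conductance of microglia, was at 11.2, 17.2 and 18.3 CPM in Suz12 cKO, against 6.98, 8.32, 4.56 and 6.89 CPM in wild type. The groups did not overlap. The means were 15.6 ± 3.82 CPM in Suz12 cKO (SD, n = 3) and 6.69 ± 1.56 CPM in wild type (SD, n = 4), a log2 fold change of 1.22 (SE 0.25, edgeR adjusted p = 0.0187). The call was lost without Suz12 cKO replicate 2 (edgeR adjusted p = 0.0813) or replicate 3 (0.0675), and the log2 fold change was 1.56 within the libraries low in haemoglobin and 0.77 within those high in it (edgeR adjusted p = 0.0271 and 0.226).

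Kcnk3, an acid-sensitive background channel known from the pulmonary artery, was at 2.34, 3.14 and 2.07 CPM in Suz12 cKO, against 0.436, 0.771, 0.136 and 0.289 CPM in wild type. Its groups stood apart, and it lay just outside the threshold (log2 fold change 2.62, SE 0.71, edgeR adjusted p = 0.0506). Kcnk6, the most abundant of the class, lay the other way at 51.2, 49.2 and 55.1 CPM in Suz12 cKO and 70.4, 56.4, 73.1 and 93.8 CPM in wild type. Its ranges did not overlap either, and it was not called (log2 fold change -0.50, SE 0.16, edgeR adjusted p = 0.0809), though it was by DESeq2 (adjusted p = 0.0327) and without wild type replicate 2 (edgeR adjusted p = 0.0132). Kcnk5, a channel opened by alkaline pH, was highest in the libraries high in haemoglobin of either genotype. It was at 14.4 and 12.1 CPM in the Suz12 cKO libraries high in haemoglobin, 12.8 CPM in the wild type library high in it, and 5.23 CPM in Suz12 cKO replicate 3 and 1.94 to 3.65 CPM in the other wild type libraries. Its log2 fold change was 1.0 over all libraries (edgeR adjusted p = 0.392) and 1.91 without wild type replicate 2, where it was called (edgeR adjusted p = 0.0148). The summed level of the class was 21.3, 22.3 and 22.8 RPKM in Suz12 cKO and 20.6, 20.8, 20.1 and 27.1 RPKM in wild type, with overlap.

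None of the 8 tested voltage-gated potassium pore genes was called, and 2 of them had a log2 fold change above 0, against 50.4% of all tested genes. Kcnh4, of the ether-a-go-go family, was the second most abundant at 28.3, 20.9 and 14.8 CPM in Suz12 cKO and 35.8, 45.4, 24.8 and 22.0 CPM in wild type (log2 fold change -0.59, SE 0.29, edgeR adjusted p = 0.264). Kcng2, a subunit that modifies other pores and conducts nothing alone, was at 0.615, 0.975 and 2.52 CPM in Suz12 cKO, against 0.0622, 0.788, 0 and 0.680 CPM in wild type. Both genes overlapped between the groups. With a term for haemoglobin in the fit Kcnh4 was called lower (log2 fold change -0.89, edgeR adjusted p = 0.0241). Kcnh3, a neuronal relative of Kcnh4, had 7, 24 and 18 counts in Suz12 cKO and none in wild type. Against a floor of 3 counts over the wild type group, which covers counting error only, it was 20.2-fold higher. It did not pass the filter and was not tested, and its exons overlap Mcrs1 on the other strand.

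Auxiliary potassium channel subunits held the sole member called lower. Kcne3 was at 20.8, 15.9 and 15.3 CPM in Suz12 cKO, against 36.4, 23.6, 36.0 and 28.4 CPM in wild type. The highest Suz12 cKO library stayed under the lowest wild type library, which was the wild type library high in haemoglobin. The means were 17.3 ± 3.01 CPM in Suz12 cKO (SD, n = 3) and 31.1 ± 6.18 CPM in wild type (SD, n = 4), a log2 fold change of -0.84 (SE 0.19, edgeR adjusted p = 0.0257). The call was lost without Suz12 cKO replicate 2 (edgeR adjusted p = 0.0997), Suz12 cKO replicate 3 (0.078), wild type replicate 1 (0.0708) or wild type replicate 3 (0.0684), and the log2 fold change was -1.15 within the libraries low in haemoglobin and -0.36 within those high in it (edgeR adjusted p = 0.0218 and 0.449). With a haemoglobin term its call was lost (log2 fold change -0.77, edgeR adjusted p = 0.0512), and Kcnh4 was then the sole member called lower. The exons of Kcne3 overlap the antisense Gm34821. Kcnq1, the pore with which Kcne3 is known to pair in epithelia, was at 0.379, 0.350 and 0.784 CPM in Suz12 cKO, against 0.585, 0.903, 0 and 0 CPM in wild type, and its reads cannot be separated from those of the antisense Kcnq1ot1. Kcnip4, a calcium-binding partner of voltage-gated potassium channels, overlapped at 1.37, 1.63 and 1.50 CPM in Suz12 cKO and 3.75, 2.02, 2.11 and 1.61 CPM in wild type.

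Both members of the calcium-activated class were expressed in all 7 libraries and neither was called. Kcnn4, the intermediate-conductance channel of blood cells, was at 11.8, 9.53 and 15.1 CPM in Suz12 cKO, against 4.07, 19.5, 5.88 and 7.94 CPM in wild type (log2 fold change 0.37, SE 0.48, edgeR adjusted p = 0.713). Its highest value was in the wild type library high in haemoglobin, and 3 of the 4 wild type libraries lay under all Suz12 cKO libraries. Without that library (wild type replicate 2) Kcnn4 was called higher (log2 fold change 1.01, edgeR adjusted p = 0.0477), and over all alternatives its log2 fold change ranged from -0.88 to 1.32.

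**Figure D4:**
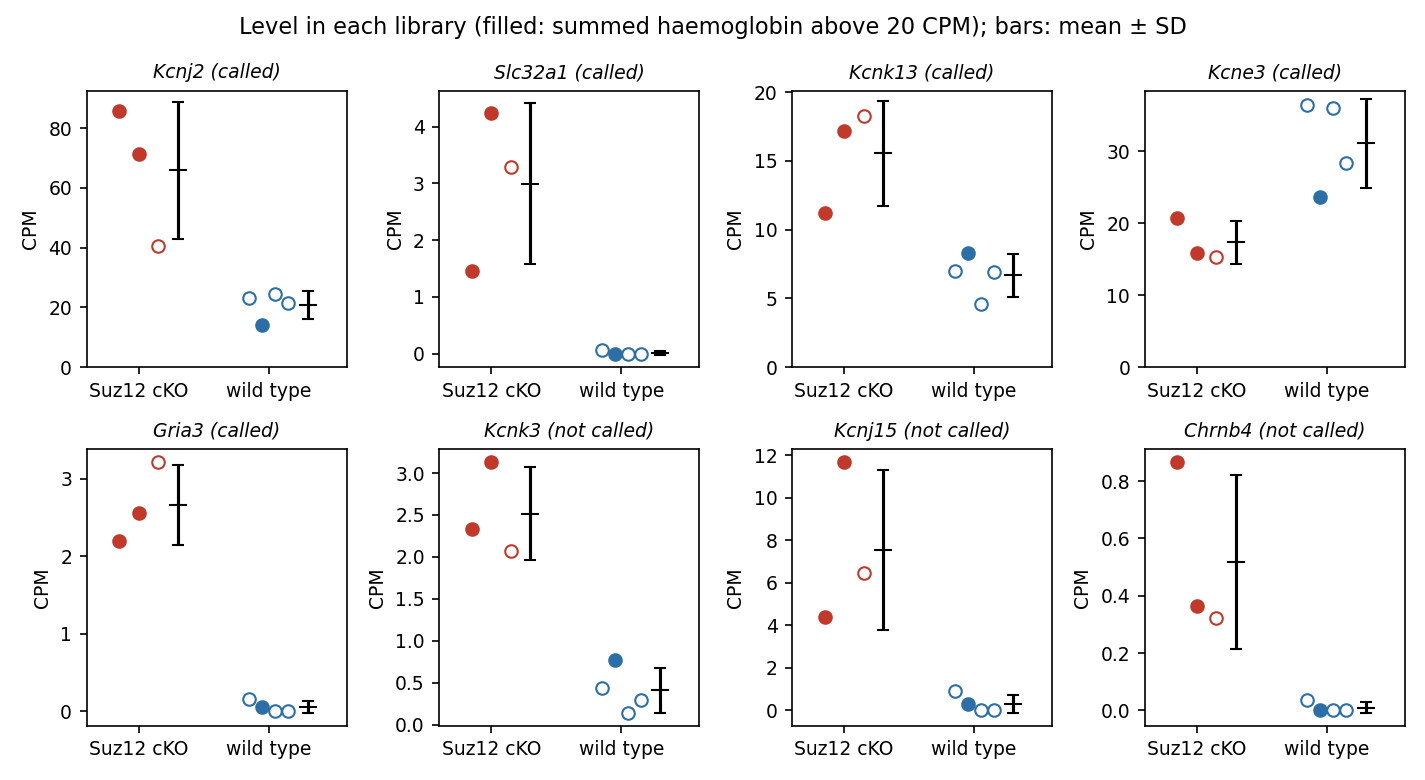
CPM in each library of the 5 called members and of the 3 members nearest the threshold among those not called, Suz12 cKO left of wild type, with filled points for libraries above 20 CPM of haemoglobin transcripts and bars for mean ± SD. The 3 Suz12 cKO and 4 wild type libraries do not overlap in any of the 8 panels. In Slc32a1, Gria3, Kcnj15 and Chrnb4 at least 2 wild type libraries lie at 0.

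Voltage-gated calcium channels had 8 pore and 6 auxiliary members, of which 11 were tested and none was called by edgeR over all 7 libraries. Cacna1d, an L-type pore that opens at low voltages, was at 6.03, 5.66 and 8.33 CPM in Suz12 cKO, against 2.39, 4.51, 3.03 and 3.40 CPM in wild type (log2 fold change 1.0, SE 0.30, edgeR adjusted p = 0.0725). Cacna1a, the P/Q-type pore of nerve terminals, was at 1.61, 2.10 and 0.979 CPM in Suz12 cKO, against 0.523, 0.312, 0.545 and 0.330 CPM in wild type (log2 fold change 1.86, SE 0.70, edgeR adjusted p = 0.137). The libraries of the genotypes did not overlap for either pore. On the other strand, Cacna1d shares exon bases with Chdh and Cacna1a with the antisense Gm16183. Cacna1d was called higher by DESeq2 (adjusted p = 0.0403), by limma-voom (adjusted p = 0.0459) and by edgeR without wild type replicate 2 (adjusted p = 0.0337). Cacna1f, the L-type pore of the retina, did overlap at 0.615, 1.42 and 0.672 CPM in Suz12 cKO and 2.53, 2.40, 0.954 and 0.928 CPM in wild type. Cacnb3, a cytoplasmic beta subunit and the most abundant calcium channel member, was at 8.73, 10.9 and 34.0 CPM in Suz12 cKO, against 3.04, 4.74, 12.2 and 14.7 CPM in wild type (log2 fold change 1.05, SE 0.62, edgeR adjusted p = 0.356). Within Suz12 cKO, replicate 3 stood far above the other Suz12 cKO libraries, whose values fell inside the wild type range, and without it the log2 fold change was 0.16. With a replicate block Cacnb3 was called higher (log2 fold change 1.40, edgeR adjusted p = 0.0138).

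No sodium channel pore was among the members. Scn3b, an auxiliary beta subunit, was at 0.615, 1.90 and 1.18 CPM in Suz12 cKO, against 0.946, 0, 0.153 and 0 CPM in wild type. Hcn2, a pacemaker channel opened by hyperpolarization, was at 1.34, 0.898 and 3.01 CPM in Suz12 cKO, against 0.448, 0.0985, 0.886 and 1.67 CPM in wild type (log2 fold change 1.18, SE 0.93, edgeR adjusted p = 0.504). Both overlapped between the groups, and none of the sodium or pacemaker channel members was called.

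Ionotropic glutamate receptor subunits, which form the excitatory receptors of synapses, had 5 tested members, all with a log2 fold change above 0 (median 1.51), and 1 was called. Of all tested genes 50.4% lay above 0, with medians of 0.56 below a mean of 1 CPM and -0.02 from 1 CPM up. Gria3 (chromosome X, 41400819 to 41678601 in GRCm38), a subunit of AMPA receptors, was at 2.19, 2.56 and 3.22 CPM in Suz12 cKO, against 0.162, 0.0492, 0 and 0 CPM in wild type. In counts that was 139, 168 and 230 in Suz12 cKO against 13, 3, 0 and 0 in wild type, with no overlap. Its exons overlap a microRNA gene, Gm22413, on the same strand. The means were 2.66 ± 0.519 CPM in Suz12 cKO (SD, n = 3) and 0.0528 ± 0.0763 CPM in wild type (SD, n = 4), a log2 fold change of 5.53 (SE 1.28, edgeR adjusted p = 0.0284). The call was lost without any one of the Suz12 cKO libraries (edgeR adjusted p = 0.0796 without replicate 1, 0.089 without replicate 2 and 0.0758 without replicate 3). It was also lost within the libraries low in haemoglobin (log2 fold change 5.75, edgeR adjusted p = 0.108), and it held within those high in it (5.54, 0.0199).

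Grik5, a kainate receptor subunit, was at 1.39, 2.39 and 4.11 CPM in Suz12 cKO, against 1.38, 1.03, 0.579 and 0.701 CPM in wild type (log2 fold change 1.51, SE 0.59, edgeR adjusted p = 0.152). Grin2d, a subunit of NMDA receptors, was at 2.34, 2.16 and 3.01 CPM in Suz12 cKO, against 1.32, 1.21, 0.920 and 1.79 CPM in wild type (log2 fold change 0.93, SE 0.47, edgeR adjusted p = 0.27). Both had higher values in every Suz12 cKO library than in any wild type library, by a small margin for Grik5, and neither was called. Grin3b, another NMDA receptor subunit, overlapped at 1.70, 1.83 and 0.406 CPM in Suz12 cKO and 1.02, 1.20, 1.46 and 0.557 CPM in wild type.

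Slc32a1 had the highest fitted fold change of the tested members. Its levels were 1.45, 4.25 and 3.29 CPM in Suz12 cKO and 0.0622, 0, 0 and 0 CPM in wild type, or 92, 279 and 235 counts in Suz12 cKO against 5, 0, 0 and 0 in wild type. All Suz12 cKO libraries lay above all wild type libraries, 3 of which had no count. The means were 3.00 ± 1.42 CPM in Suz12 cKO (SD, n = 3) and 0.0156 ± 0.0311 CPM in wild type (SD, n = 4). The edgeR adjusted p was 0.01, and the log2 fold change of 7.25 (SE 1.30) depends on how the fit treats wild type libraries at 0. The call was lost without Suz12 cKO replicate 2 (edgeR adjusted p = 0.0572). The gene lies on chromosome 2 from 158607260 to 158615747 in GRCm38, and its exons overlap the antisense Gm14205, so without the strand setting the reads of the pair cannot be told apart.

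Gabrd, a GABA-A receptor subunit found outside synapses, was the other member of the inhibitory group. It was at 0.300, 0.426 and 0.084 CPM in Suz12 cKO, against 0.212, 0.607, 0.341 and 0.206 CPM in wild type, with full overlap (log2 fold change -0.34, SE 1.10, edgeR adjusted p = 0.906). The marker list for neurons and glia gave 12.7 to 17.8 CPM in Suz12 cKO and 9.69 to 13.6 CPM in wild type, with Syt1, Nefl and Snap25 at 0 in every library and 1 of the 6 tested markers, Uchl1, called higher. The largest part of each sum was Syp, at 7.62, 11.5 and 7.08 CPM in Suz12 cKO and 8.85 to 11.4 CPM in wild type. Syp was not called (log2 fold change -0.13, edgeR adjusted p = 0.797). The neuroendocrine list gave 0 to 0.537 CPM in Suz12 cKO and 0 to 0.309 CPM in wild type.

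Nicotinic acetylcholine receptor subunits had 5 tested members, all with a log2 fold change above 0 (median 0.64) and none called. Of all tested genes 50.4% lay above 0, with medians of 0.56 below a mean of 1 CPM and -0.02 from 1 CPM up. Chrnb4, a subunit of ganglionic receptors, was at 0.868, 0.365 and 0.322 CPM in Suz12 cKO, against 0.0373, 0, 0 and 0 CPM in wild type, with no overlap (log2 fold change 5.39, SE 1.63, edgeR adjusted p = 0.0714). Its neighbour Chrna3 had no count, and Chrna5, in the same cluster, had 7, 0 and 0 counts in Suz12 cKO and 0, 12, 0 and 0 in wild type. Chrnb1, a subunit of the muscle receptor, was at 1.78, 1.28 and 2.17 CPM in Suz12 cKO, against 0.971, 1.38, 1.52 and 0.598 CPM in wild type. Chrnb2, the beta subunit common in brain, was at 1.69, 3.90 and 1.37 CPM in Suz12 cKO, against 2.64, 2.15, 1.91 and 1.30 CPM in wild type. The genotypes overlapped for both of these, and Chrnb2 shares exon bases with Adar on the other strand.

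Genes of the family that lie side by side often differed in level. Kcnj16, an inward rectifier gene 38.2 kb from Kcnj2, had 14, 11 and 0 counts in Suz12 cKO and none in wild type, while Kcnj2 had 5425, 4681 and 2897 counts in Suz12 cKO and 1849, 861, 1437 and 1045 in wild type. Kcna2, 52.8 kb from Kcna3, had 5, 24 and 0 counts in Suz12 cKO and none in wild type. Kcnk16, 79.6 kb from Kcnk5, had no count in any library. Chrnb2, 81.0 kb from Kcnn3, had 107, 256 and 98 counts in Suz12 cKO and 212, 131, 112 and 63 in wild type, while Kcnn3 had 18405 to 20978 in Suz12 cKO and 13128 to 21070 in wild type.

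Some members were higher in each haemoglobin-rich library than in any other library, at about the share of all genes. Kcnk5, Kcnj10, Chrna2 and Cacnb2 had their 3 top values in the haemoglobin-rich libraries, which is 7.55% of the tested members against 8.6% of all genes. Some markers of other cells also differed between the genotypes. The neutrophil list summed to 118 to 175 CPM in Suz12 cKO and 56.4 to 67.0 CPM in wild type, with 4 of 5 tested genes called higher and Ly6g at 0. The fibroblast list summed to 31.4 to 41.3 CPM in Suz12 cKO and 0.0206 to 22.2 CPM in wild type, with Tcf21 at 0, and its sum in Suz12 cKO was nearly all Pdgfra, a growth factor receptor. Pdgfra, the 1 of 3 tested genes called, was at 29.6, 37.0 and 33.6 CPM in Suz12 cKO, against 2.39, 1.30, 0.272 and 0 CPM in wild type, while Col3a1 and Dcn, matrix genes, had log2 fold changes of -1.34 and -1.43 and were not called. The part of such cells in the called members was not tested.

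A second list of 168 channel and receptor genes outside the symbol rule (chloride, TRP, purinergic, acid-sensing, proton and intracellular calcium release channels, and metabotropic receptors) was read for comparison. It had 73 tested genes, of which 8 were called higher and 3 lower in Suz12 cKO (11.0% and 4.11%, against 6.28% and 4.02% of all genes), with a median log2 fold change of 0.0011. Adra2a, an adrenergic receptor that inhibits adenylate cyclase, was at 22.3, 20.9 and 16.5 CPM in Suz12 cKO, against 3.30, 1.58, 1.67 and 1.28 CPM in wild type, far apart (log2 fold change 3.34, SE 0.34, edgeR adjusted p = 9.8e-04). Also called higher were 4 channels of intracellular calcium stores: Itpr3 and Itpr1, receptors for inositol trisphosphate (log2 fold changes 2.16 and 0.84), and Tpcn1 and Tpcn2, cation channels of endosomes and lysosomes (1.26 and 0.74). Trpc1, a cation channel of the plasma membrane, was at 0.789, 0.548 and 0.574 CPM in Suz12 cKO with no count in wild type (edgeR adjusted p = 0.0347). Against a floor of 3 counts over the wild type group, which covers counting error only, Trpc1 was 52.5-fold higher. The remaining 2 called higher were Clic6 (3.48) and Ano10 (0.63). Hvcn1, the voltage-gated proton channel of phagocytes, was lower at 527, 450 and 465 CPM in Suz12 cKO and 629, 621, 665 and 661 CPM in wild type (log2 fold change -0.42, SE 0.08, edgeR adjusted p = 0.0151), and P2rx5 (-0.61) and Trpv2 (-0.32) were the other genes called lower. The calls of Adra2a, Itpr3 and Clic6 were present under all 17 alternatives, while that of Trpv2 was lost under 12, those of P2rx5 and Trpc1 under 8 each, and that of Hvcn1 under 3.

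Of the 5 calls among the members, the Kcnj2 call was present under all 17 alternatives, with log2 fold changes of 0.80 to 2.47. The call was lost under 2 of the 17 for Slc32a1, 4 for Kcnk13, 5 for Gria3 and 6 for Kcne3, and no fitted direction turned.

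**Figure D5:**
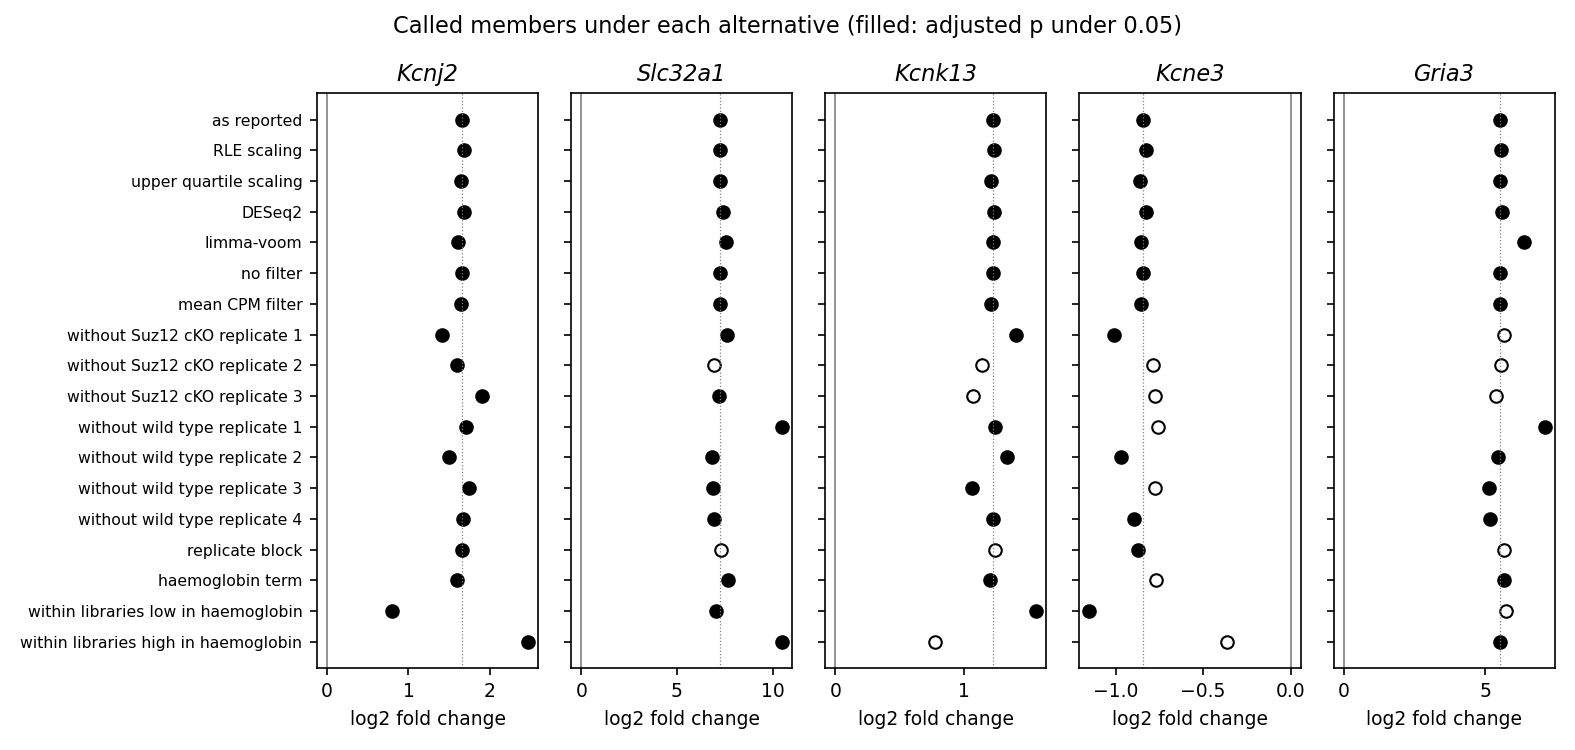
Log2 fold change of Suz12 cKO over wild type for the 5 called members as reported and under 17 alternatives (rows), filled where the edgeR, DESeq2 or limma adjusted p was under 0.05. All points of Kcnj2 are filled, and the open points of the other 4 genes lie mostly where a library was left out or where the libraries were split by haemoglobin.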

How the data were processed

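RNA of sorted alveolar macrophages was measured by polyA RNA sequencing in 3 Suz12 cKO and 4 wild type libraries, grouped by the genotype label. The authors deposited raw read counts of each gene, for which the submitters' processing notes name featureCounts and mm10. Sources used here give no aligner, annotation or strand setting. Counts per library (48104653 to 79281431) exceed the 14 to 20 M reads (M, 1000000) stated in the labels, and few genes had 1 to 5 counts (303 to 684 per library) against 6 to 32 counts (728 to 2232), so 1 molecule may give several counts, and intervals and floors cover counting error only. Nothing says that the libraries came from separate marrow donors, so p-values measure the spread between these samples. Replicates of a genotype differed by more than sampling noise (chi-square per degree of freedom 47.6 to 248), so none was a copy.

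Symbols came from RefSeq (GRCm38.p6) by Entrez number: 25275 of 27179 genes matched, and the others held 0.829% of counts. Genes passing filterByExpr (14436; minimum count 10, minimum total 15) were scaled by TMM and tested with edgeR 4.0.16 (quasi-likelihood, genotype as the sole term, R 4.3.3), with Benjamini-Hochberg adjustment over all of them. The SE of a log2 fold change is the fold change over the root of F. Floors are 3 counts, over a group for folds and per library for levels. The fit was tested on simulated counts. Overlapping genes came from the GENCODE M21 annotation. Besides the overlaps named above, exons of Cacnb2, Grin2d, Grin3b, Kcng2, Kcnip4, Kcnj9 and Kcnk3 overlap genes on the other strand. Those of Kcnab2 overlap a gene on the same strand.

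Members and lists were chosen with earlier results of these data known, as was the split of libraries at 20 CPM of haemoglobin transcripts. Genes named are the called members, 3 members on each side of the threshold, the 5 most abundant, those leading each class by level, called genes of the second list, and some chosen after their values were seen, mainly members whose ranges do not overlap and neighbours in the genome. Alternatives were RLE and upper quartile scaling, DESeq2 1.42.0, limma-voom 3.58.1, no filter, a filter at a mean of 0.2 CPM, each library left out, a replicate block, a haemoglobin term and fits within each side of the haemoglobin split. No protein sequences were used here. The values of 3 genes with a matching symbol are not reported here.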

Additional observations from a re-analysis of the deposited data

Results flagged for a closer look

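Among 54 named or tested genes examined, 8 (14.8%) had a wild type library far from the other 3. The cut used would flag about 1 in 20 groups if the values were independent and normally distributed. That rate need not hold here, because some values are 0 and all genes share the same wild type libraries. The share of all genes flagged by this cut was not counted, so whether 14.8% is an excess was not tested. Where most wild type libraries are at 0, a library with any count is singled out by this cut. That was the case for Slc32a1, at 0.0622 CPM in wild type replicate 1 with the others at 0, for Chrnb4, at 0.0373 CPM in the same library, and for Cacnb2 and Scn4b, at 0.213 and 0.591 CPM in wild type replicate 2 alone. Cacna1c, an L-type calcium channel pore, stood at 0.722 CPM in wild type replicate 4, with the next library at 0.0341 CPM. Scn3b stood at 0.946 CPM in wild type replicate 1, with the next at 0.153 CPM. Of the more abundant members, Kcnk5 was at 12.8 CPM in wild type replicate 2, the wild type library high in haemoglobin, with the others at 1.94 to 3.65 CPM. Kcnn3 was at 339 CPM in wild type replicate 3, with the others at 262 to 272 CPM. The Suz12 cKO group, with 3 libraries, was too small for this comparison.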

How the results depend on the processing

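Members called higher numbered 4 as reported, 7 with DESeq2, 8 with limma-voom, 2 with a replicate block (Cacnb3 and Kcnj2) and 1 to 9 when each library was left out. The low end was without Suz12 cKO replicate 2 (Kcnj2 alone), with 2 without Suz12 cKO replicate 3, and the high end without wild type replicate 2. Members called lower numbered 1 as reported, 2 with DESeq2, 0 within the libraries high in haemoglobin and 0 to 3 when each library was left out. All genes called higher numbered 906 as reported, 1393 with DESeq2, 585 with the block and 447 to 1515 with a library left out. All genes called lower numbered 580, against 278 with the block, 367 and 328 within the libraries low and high in haemoglobin, and 268 to 885 with a library left out. The cause was not tested, beyond the smaller number of libraries in the last 2 kinds of fit. Within the libraries low in haemoglobin the lone Suz12 cKO library, and within those high in it the lone wild type library, was assumed to vary like the others. Same-numbered libraries of the genotypes deviated together with r of -0.041, 0.24 and 0.16, against -0.26 to 0.12 for libraries with unlike numbers. Whether the numbers pair the samples was not tested. Directions turned for 5 of the named members. With a library left out Kcna3, -0.05 as reported, ranged from -0.17 to 0.073 and Gabrd, -0.34 as reported, from -0.83 to 0.079. Kcnn4, 0.37 as reported, was at -0.88 within the libraries high in haemoglobin and 1.32 within those low in it, and at 1.01 and called without wild type replicate 2. Kcnab2 was at 0.081 and Kcnn3 at -0.00074 within the libraries low in haemoglobin. Under the haemoglobin term the count of members called lower stayed at 1, but the gene was Kcnh4 and not Kcne3. Of the members nearest the threshold, Kcnk3 was called under 4 of 17 alternatives, Kcnj15 under 5 and Chrnb4 under 2. With a count required in 1 or in all 7 libraries the members would number 99 or 32, and 56 with 10 counts in 3 libraries. Depth limits the 22 members under 0.1 RPKM most.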

Other observations

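Outside the members, 35 genes with a matching symbol had counts in 1 or 2 libraries. Scn7a, an atypical sodium channel known from glia and smooth muscle, had 26 counts in Suz12 cKO replicate 2 and 153 in wild type replicate 2, both libraries high in haemoglobin, and none in the other 5 libraries. Kcnip1, a calcium-binding partner of voltage-gated potassium channels, had 15 counts in Suz12 cKO replicate 1, and its neighbour Kcnmb1, the smooth muscle subunit of the large-conductance channel, had 16 counts in Suz12 cKO replicate 2. Both were at 0 in every wild type library. These genes were chosen after their values were seen and were not tested.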
